A study of Rattus norvegicus with 8 samples.

Results

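The genes described here encode parts of the contractile apparatus of smooth muscle cells, some of which myofibroblasts also make: Acta2, Tagln, Cnn1, Myh11, Tpm1 and Cald1. These 6 of the 4737 genes with a symbol of their own on the array were read through every probe set (a group of short probes that together measure 1 transcript) whose only symbol is one of theirs. There were 15 such probe sets among 8799. Tpm1 had 5, Acta2 and Myh11 had 3 each, Tagln had 2, and Cnn1 and Cald1 had 1 each. A further 4 probe sets carried the symbols of both Acta2 and the cardiac actin gene Actc1 and were not members.

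The study asked how hindlimb unloading changes the healing of a torn knee ligament in rats. RNA of the medial collateral ligament was read on 8 one-colour arrays, 2 in each of 4 groups, at 3 weeks. Unloaded healing rats had the ligament of both knees disrupted and were then suspended by the tail from 24 h after surgery, so that the hind legs carried no weight. Loaded healing rats had the same injury and walked normally. Unloaded control rats were tail suspended but had neither the injury nor a sham operation, and loaded control rats walked normally after a sham operation. The labels name no strain, sex or age of the rats, nor do they say whether arrays of a group came from separate rats or from pools. The p-values therefore measure only the spread between arrays, which may be technical.

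Myofibroblasts are fibroblasts that build actin bundles rich in smooth muscle actin and pull on the matrix of a closing wound. Vascular smooth muscle also uses smooth muscle actin, to hold the tone of vessel walls. In both cells force comes from myosin sliding along actin, while tropomyosin, calponin and caldesmon lie on the actin filament and set how readily myosin can engage it. Many genes of this apparatus are switched on by serum response factor, which binds a DNA element called the CArG box, and mechanical tension and TGF-beta are known to raise them in cultured fibroblasts.

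Promoter sequence is shown for Acta2, the classic CArG-box gene, and for Tpm1 and Cald1, the members whose signals differed between groups by the tests below. The sequences are from RefSeq on build GRCr8, covering 250 bases before to 50 after an annotated start, and 4 of the 6 genes had one. They lie at chr1:241172454-241172753 on the minus strand for Acta2, at chr8:76543366-76543665 on the minus strand for Tpm1 and at chr4:64233006-64233305 on the plus strand for the first of 2 annotated starts of Cald1. Each runs 5′ to 3′ along the gene, and capitals mark a CArG box with at most 1 departure from its A/T core, or the 6-base MCAT motif CATTCC or its reverse complement.
Acta2: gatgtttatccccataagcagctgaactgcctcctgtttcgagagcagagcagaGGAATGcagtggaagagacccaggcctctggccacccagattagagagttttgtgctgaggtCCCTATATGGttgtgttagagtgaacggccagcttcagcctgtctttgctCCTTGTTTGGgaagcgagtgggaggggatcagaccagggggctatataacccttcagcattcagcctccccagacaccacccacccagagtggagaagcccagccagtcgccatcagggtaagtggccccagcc
Tpm1: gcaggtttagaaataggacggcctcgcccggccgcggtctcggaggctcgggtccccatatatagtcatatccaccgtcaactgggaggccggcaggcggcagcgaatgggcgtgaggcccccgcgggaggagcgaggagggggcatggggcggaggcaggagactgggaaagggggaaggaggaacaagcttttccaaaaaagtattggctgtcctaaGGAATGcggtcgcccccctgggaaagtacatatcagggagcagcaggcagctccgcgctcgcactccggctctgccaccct
Cald1: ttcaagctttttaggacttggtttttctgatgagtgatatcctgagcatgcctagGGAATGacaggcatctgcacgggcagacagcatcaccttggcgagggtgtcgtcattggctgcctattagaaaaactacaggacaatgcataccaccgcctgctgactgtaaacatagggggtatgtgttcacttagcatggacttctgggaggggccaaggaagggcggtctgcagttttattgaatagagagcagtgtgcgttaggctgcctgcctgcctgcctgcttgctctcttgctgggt
The Acta2 window held 2 CArG boxes with 1 departure each, at -134 to -125 and -84 to -75 from the annotated start, and an MCAT match at -196 to -191. MCAT matches stood at -31 to -26 in Tpm1 and at -195 to -190 in Cald1. Neither motif was found in the Cnn1 window, nor in that of the second Cald1 start. No CArG and MCAT matches overlapped. For comparison, a CArG box with at most 1 departure was present in 9.42% of 33469 promoter windows of the same length, one with none in 1.64%, and an MCAT match on either strand in 14.2%. These matches are letters in a window, and binding was not measured.

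The 4 groups did not read alike on the array as a whole. Across probe sets, log2 signal of the unloaded control arrays correlated with the other 6 arrays at Pearson r of 0.492 to 0.608, against 0.761 to 0.872 among those 6, and their 99th percentiles of signal were 5494 and 5584 against 9218 to 11289 elsewhere. Markers of ligament fibroblasts (6 genes on the array, among them Col1a1, Col1a2 and Dcn) had a summed signal of 59224 to 78137 in unloaded healing, 117899 to 140776 in loaded healing, 7594 to 8246 in unloaded control and 110485 to 131981 in loaded control, so the collagen signal that marks a ligament was low in the unloaded controls. The 5'/3' ratio of the array's actin controls, a sign of RNA quality, was 0.964 and 0.634 in unloaded control and 0.237 to 0.529 on the other 6 arrays. Every comparison with the unloaded controls carries these differences, and unloading cannot be told apart there from the missing sham operation. The loaded healing arrays stood apart on another control. Their GAPDH 3' control read 1038.5 and 842.6, against 1871.8 to 2334.6 on the other 6 arrays. Every comparison with loaded healing carries that difference, and its part in the member results was not tested. Detection calls were not used here, so a low signal is given as a low value, with no statement on whether a transcript was present.

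Of the 15 member probe sets, 8 passed the filter on low mean signal and entered the limma fit over 5244 probe sets: 4 of Tpm1 and 1 each of Acta2, Tagln, Cnn1 and Myh11. The other 7, with the only Cald1 probe set among them, were in the dimmest 40% and are given as values. A fit without the filter is given for Cald1 and, in part, for the dim Acta2 probe sets. In that fit Cald1 was the only one of the 7 that passed in any of the 6 comparisons. Fold changes are on the scale of log2(signal + 45.8), which understates changes of dim probe sets.

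**Figure D1:**
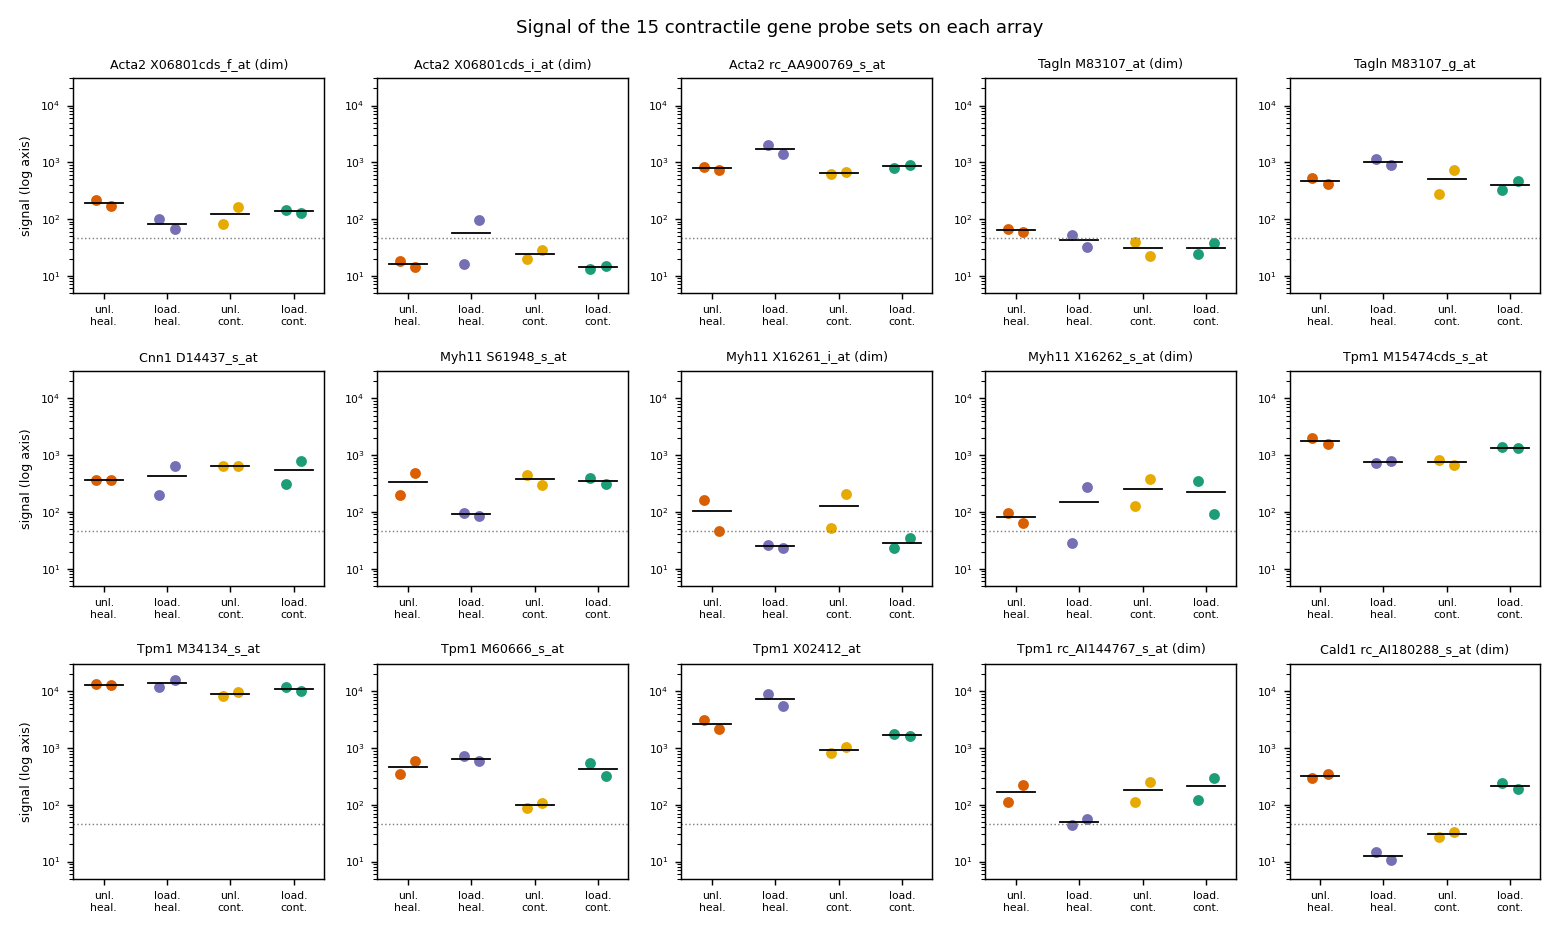
Signal of each of the 15 member probe sets (log axis) on the 8 arrays, by group: points are arrays, bars are group means, the dotted line is the offset of 45.8, and "dim" marks the 7 probe sets under the filter. Acta2 rc_AA900769_s_at, Tagln M83107_g_at and Tpm1 X02412_at are highest in loaded healing, whereas Cald1 is lowest there.

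In loaded rats, the healing ligament carried about 4 times the sham signal of one alpha-tropomyosin probe set. The brightest probe set of smooth muscle actin and that of transgelin lay above sham on both arrays without passing the test over all probe sets. The brightest smooth muscle myosin probe set and caldesmon lay below sham on both arrays. In the limma fit 1 of 8 tested members rose and 0 fell, against 1.03% of all tested probe sets called higher and 0.992% called lower, and 5 members had an unadjusted p under 0.05, as did 614 of all 5244. Over all 15 members, 5 had both healing arrays above both sham arrays and 5 had both below, where 18.1% and 19.7% of 8740 probe sets did so. The median log2 difference of the 15 was -0.07, and that of all 8740 probe sets was -0.03. The 6 genes thus did not shift as a block.

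Acta2 encodes smooth muscle alpha-actin, the actin isoform by which myofibroblasts are usually recognised. On its bright probe set rc_AA900769_s_at loaded healing gave 1998.5 and 1415.2, against 800.0 and 899.1 in loaded control. Both healing arrays were higher, by 1.93-fold on average (log2 0.95 ± 0.30 SE, limma adjusted p = 0.194, n = 2 arrays in each group throughout), which did not pass. Its 2 other probe sets were dim: X06801cds_f_at read 99.8 and 65.9 in loaded healing and 145.5 and 125.7 in loaded control, and X06801cds_i_at read 16.3 and 97.7 in loaded healing and 12.9 and 15.1 in loaded control. The 3 readings of Acta2 therefore did not share a direction. Neither dim difference passed in the fit without the filter (limma adjusted p = 0.852 for X06801cds_f_at and 0.612 for X06801cds_i_at). Actin genes resemble each other in their coding sequence, so probe sets of 1 actin can pick up another. The skeletal actin Acta1, which is carried by muscle fibres, rose beside Acta2 rc_AA900769_s_at. Acta1 had 2659.6 and 2405.1 in loaded healing and 1164.0 and 1026.0 in loaded control (log2 1.18 ± 0.25, limma adjusted p = 0.0453). The beta-actin 3' control of the array read 1353.1 and 1596.6 in loaded healing and 4393.3 and 4955.3 in loaded control, the opposite direction. The part of cross-reading between actins in these values was not tested.

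Tagln and Cnn1 encode transgelin (SM22) and calponin, which bind actin filaments in smooth muscle. Tagln M83107_g_at gave signals of 1158.8 and 899.1 in loaded healing, while sham gave 318.6 and 464.2, so loaded healing was 2.47-fold higher than loaded control (log2 1.31 ± 0.48, limma adjusted p = 0.292). Both healing arrays were above both sham arrays, and the difference did not pass. The second Tagln probe set, M83107_at, named for the same transcript record, read 52.9 and 32.1 in loaded healing and 24.1 and 38.0 in loaded control, and these overlapped. Cnn1 D14437_s_at read 198.0 and 649.1 in loaded healing and 306.0 and 781.3 in loaded control. Replicates of Cnn1 lay further apart than the group means (log2 -0.39 ± 0.59, limma adjusted p = 0.892).

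Myh11 encodes smooth muscle myosin heavy chain, the motor and the most restricted marker of differentiated smooth muscle. Probe set S61948_s_at gave 96.7 and 85.9 in loaded healing, and loaded control gave 396.9 and 305.9. Both healing arrays were lower, 2.88-fold on average (log2 -1.53 ± 0.56, limma adjusted p = 0.287), which did not pass. Of its 2 dim probe sets, X16261_i_at read 25.8 and 23.4 in loaded healing and 22.9 and 34.2 in loaded control, and X16262_s_at read 28.0 and 275.8 in loaded healing and 354.7 and 90.9 in loaded control. Both of these overlapped between the groups.

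Tpm1 encodes alpha-tropomyosin, a coiled coil that lies along the actin filament. The gene makes muscle and nonmuscle isoforms through alternative starts and splicing, and which isoforms each probe set reads is not given in the sources used here. On X02412_at loaded healing gave 8980.7 and 5620.0, against 1769.1 and 1651.4 in loaded control, a rise of 4.07-fold (log2 2.03 ± 0.28, limma adjusted p = 0.00548). The call ended without loaded healing 1 (adjusted p = 0.0814) and without loaded control 2 (adjusted p = 0.0586), and with a variance prior that ignores signal level (adjusted p = 0.0749). M15474cds_s_at lay on the other side, with 713.1 and 802.2 in loaded healing and 1365.3 and 1339.4 in loaded control (log2 -0.80 ± 0.27, limma adjusted p = 0.231). The brightest, M34134_s_at, read 12064.8 and 15788.7 in loaded healing and 12161.4 and 10095.8 in loaded control and overlapped (log2 0.32 ± 0.18, limma adjusted p = 0.590). M60666_s_at read 714.9 and 582.8 in loaded healing and 537.1 and 320.3 in loaded control (log2 0.58 ± 0.49, limma adjusted p = 0.770). The dim rc_AI144767_s_at read 44.3 and 57.0 in loaded healing, both below the 121.5 and 303.0 of loaded control.

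Tropomyosin also belongs to the sarcomere of skeletal muscle, so muscle fibre markers are given beside it. The summed signal of 19 skeletal muscle genes ranged from 27771 to 35375 in loaded healing and from 20310 to 22390 in loaded control, and 1 of their 18 tested probe sets rose (Acta1) and 0 fell. The median log2 difference of those 18 was 0.04, against -0.03 for all tested, and 4 had an unadjusted p under 0.05. The summed signal of 10 macrophage genes, cells that fill a healing wound, ranged from 30751 to 35352 in loaded healing and from 8962 to 9055 in loaded control. No marker was listed at 0. Their part in the Tpm1 result was not tested. In a bulk sample fewer cells of a type and less RNA per cell cannot be told apart.

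Cald1 encodes caldesmon, which holds actin, tropomyosin and myosin and restrains their sliding, with a long form in smooth muscle and a short form in other cells. Its single probe set, rc_AI180288_s_at, read 299.4 and 356.4 in unloaded healing, 14.8 and 10.5 in loaded healing, 27.1 and 33.7 in unloaded control and 244.2 and 190.1 in loaded control. The groups formed 2 levels, with unloaded healing and loaded control at 190.1 or above and the other 4 arrays below the offset. Because the low groups pulled down its mean, it fell under the filter. With one side of most comparisons below the offset, the size of a Cald1 difference depends on that offset. Without the filter, loaded healing lay below loaded control (log2 -2.16 ± 0.40, and -2.23 to -1.03 over 7 other settings, limma adjusted p = 0.0540), which did not pass, where 0.378% of 8740 probe sets were called lower.

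Under unloading, the healing ligament had lower tropomyosin signal on X02412_at and higher caldesmon signal than the loaded healing ligament. In the limma fit 0 of 8 tested members rose and 1 fell, against 0.763% of tested probe sets called higher and 0.858% called lower, and 4 had an unadjusted p under 0.05, as did 574 of all 5244. Over all 15, 7 had both unloaded healing arrays above both loaded healing arrays and 4 had both below, where 21.6% and 16.9% of 8740 probe sets did so. The loaded healing arrays enter this comparison and the one above with opposite sign, so a high or low value there moves both, and the values of the other groups are set beside each.

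Tpm1 X02412_at read 3156.8 and 2157.8 in unloaded healing, against 8980.7 and 5620.0 in loaded healing, and fell 2.69-fold (log2 -1.43 ± 0.28, limma adjusted p = 0.0372). This call did not survive the removal of any array (adjusted p = 0.0509 to 0.299 over the 8 fits, with log2 values of -1.76 to -1.09), median centring (0.110), the variance prior without the trend (0.208) or the fit without a filter (0.0873). M15474cds_s_at read 1968.7 and 1605.2 in unloaded healing, against 713.1 and 802.2 in loaded healing, in the opposite direction (log2 1.18 ± 0.27, limma adjusted p = 0.0760). M34134_s_at read 13573.3 and 12689.3 in unloaded healing, inside the loaded healing range, and M60666_s_at read 348.9 and 580.6, below both loaded healing values. The limma adjusted p was 0.937 for M34134_s_at and 0.803 for M60666_s_at. The dim rc_AI144767_s_at read 112.6 and 227.1 in unloaded healing, above both loaded healing values. Beside the fall of X02412_at, the skeletal myosin gene Myh4 read 2068.0 and 2264.5 in unloaded healing, against 7031.7 and 4877.3 in loaded healing (log2 -1.42 ± 0.26, limma adjusted p = 0.0255), the 1 of 18 tested skeletal muscle probe sets that fell, with 0 that rose. Over those 18 probe sets the median log2 difference was 0.18, against 0.06 for all tested, the opposite direction to Myh4. The skeletal muscle sum overlapped, at 26281 to 29264 in unloaded healing and 27771 to 35375 in loaded healing. The macrophage sum was 10030 to 10512 in unloaded healing, against 30751 to 35352 in loaded healing, and the part of these markers in the Tpm1 result was not tested.

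For the other members no test passed in the fit with the filter. Acta2 rc_AA900769_s_at read 838.8 and 722.7 in unloaded healing, both below loaded healing (log2 -1.07 ± 0.30, limma adjusted p = 0.158). Scaled to the array's spike-in controls, this Acta2 difference was -1.55 and passed (adjusted p = 0.0476), while the same scaling moved the median of all tested probe sets in this comparison to -0.40 from 0.06. Tagln M83107_g_at read 535.5 and 414.0 in unloaded healing, also below both loaded healing values (log2 -1.05 ± 0.48, limma adjusted p = 0.491). Myh11 S61948_s_at read 195.1 and 477.6 in unloaded healing, above both loaded healing values (log2 1.37 ± 0.56, limma adjusted p = 0.400). Cnn1 read 370.1 and 363.3 in unloaded healing, between the 2 loaded healing values (log2 0.0031 ± 0.59, limma adjusted p = 0.999). Among the dim probe sets, Acta2 X06801cds_f_at (212.6 and 172.6), Tagln M83107_at (67.7 and 59.1) and Myh11 X16261_i_at (159.0 and 46.2) lay above both loaded healing values in unloaded healing. The remaining pair, Acta2 X06801cds_i_at (18.0 and 14.1) and Myh11 X16262_s_at (96.6 and 64.8), overlapped with loaded healing.

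Cald1 was higher in unloaded than in loaded healing in the fit without the filter (log2 2.67 ± 0.40, limma adjusted p = 0.0275), where 0.355% of probe sets were called higher. Over the 8 fits that each left out 1 array, the adjusted p ranged from 0.0350 to 0.212. The call held without either loaded control array and ended without each of the 6 others, and also with a floor in place of the offset (0.0569). Across all alternatives the difference stayed positive, from 1.38 to 2.83 log2 units, the smallest being with the offset 4 times as large.

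**Figure D2:**
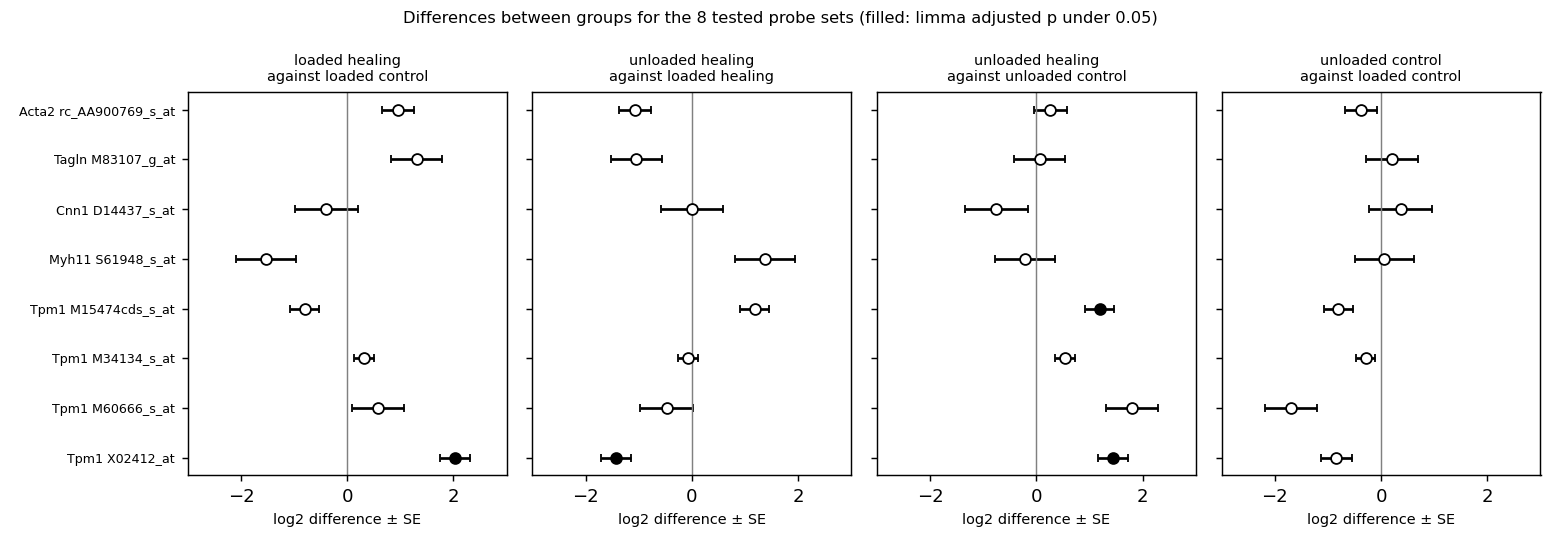
Log2 differences between groups (points) with SE (bars) for the 8 tested member probe sets in the 4 pairwise comparisons of neighbouring groups; filled points passed at limma adjusted p under 0.05. Tpm1 X02412_at passes in the first 3 panels and M15474cds_s_at in the third, and the other 6 probe sets pass in none.

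In unloaded rats, 2 of the 5 Tpm1 probe sets were higher in healing than in control ligaments, and no actin, transgelin, calponin or myosin probe set passed the test. In the limma fit 2 of 8 tested members rose and 0 fell, where 6.41% of tested probe sets were called higher and 1.05% lower, and 4 had an unadjusted p under 0.05, as did 1004 of all 5244. Over all 15, 8 had both unloaded healing arrays above both unloaded control arrays and 3 had both below, against 15.2% and 32.8% of 8740 probe sets. Both calls were of Tpm1. X02412_at read 3156.8 and 2157.8 in unloaded healing, against 830.6 and 1050.8 in unloaded control, 2.71-fold higher (log2 1.44 ± 0.28, limma adjusted p = 0.00958). M15474cds_s_at read 1968.7 and 1605.2 in unloaded healing, against 832.0 and 679.6 in unloaded control, 2.29-fold higher (log2 1.19 ± 0.27, limma adjusted p = 0.0237). The other bright Tpm1 probe sets also lay above both control values: M34134_s_at had 8395.5 and 9747.9 in unloaded control (log2 0.53 ± 0.18, limma adjusted p = 0.129) and M60666_s_at had 86.7 and 108.5 (log2 1.80 ± 0.49, limma adjusted p = 0.0580), and neither passed. The dim rc_AI144767_s_at overlapped, with 112.6 and 227.1 in unloaded healing and 111.3 and 255.6 in unloaded control (log2 -0.07). With quantile normalization M34134_s_at turned to -0.50, and M60666_s_at passed at 2.03 (adjusted p = 0.0224).

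Beside these rises stand the low bright signal and the high actin 5'/3' ratios of the unloaded control arrays, and skeletal muscle markers moved the same way. Their summed signal was 26281 to 29264 in unloaded healing and 16654 to 18720 in unloaded control, and 4 of 18 tested probe sets rose (Acta1, Myh4, Tnni2 and Tnnc2) and 0 fell. The part of these in the Tpm1 rises was not tested. The X02412_at call ended without unloaded control 1 (adjusted p = 0.0808), without unloaded healing 1 (0.0796) and without the variance trend (0.0711). The M15474cds_s_at call ended without each of the 4 unloaded arrays (0.0549 to 0.144), without the trend (0.0655) and under spike-in scaling (0.112).

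Acta2 rc_AA900769_s_at, at 611.6 and 671.8 in unloaded control, lay below unloaded healing on both arrays, with a small difference (log2 0.26 ± 0.30, limma adjusted p = 0.678). Tagln M83107_g_at, at 272.1 and 727.6 in unloaded control, spanned the healing values (log2 0.06 ± 0.48, adjusted p = 0.966). Cnn1 read 656.0 and 644.0 in unloaded control, above both healing arrays (log2 -0.75 ± 0.59, limma adjusted p = 0.522). Myh11 S61948_s_at read 449.2 and 296.2 in unloaded control and overlapped with healing (log2 -0.21 ± 0.56, limma adjusted p = 0.872). Of the dim probe sets, Acta2 X06801cds_f_at (81.9 and 165.7) and Tagln M83107_at (39.0 and 22.6) lay below both healing values in unloaded control. Acta2 X06801cds_i_at (19.7 and 28.1) and Myh11 X16262_s_at (129.0 and 385.7) lay above both, and Myh11 X16261_i_at (52.6 and 202.7) overlapped. Cald1 was higher in unloaded healing than in unloaded control in the fit without the filter (log2 2.29 ± 0.40, and 1.26 to 2.83 over 7 other settings, limma adjusted p = 0.0105), where 3.54% of probe sets were called higher. That call ended without unloaded control 1 (adjusted p = 0.115) and without unloaded control 2 (0.0878).

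Between the uninjured groups no member passed the limma fit, in which 0 of 8 rose and 0 fell and 3 had an unadjusted p under 0.05, as did 932 of all 5244. In the same comparison 0.591% of tested probe sets were called higher and 6.22% lower. Over all 15 members, 2 had both unloaded control arrays above both loaded control arrays and 6 had both below, against 34.2% and 13.5% of 8740 probe sets. All 4 bright Tpm1 probe sets were among those 6, with log2 differences of -0.84 for X02412_at, -0.81 for M15474cds_s_at, -0.29 for M34134_s_at and -1.69 for M60666_s_at (limma adjusted p = 0.0806 for the last and 0.137 to 0.456 for the others). Acta2 rc_AA900769_s_at was another of the 6, at 611.6 and 671.8 in unloaded control against 800.0 and 899.1 in loaded control. Its log2 difference was -0.38 ± 0.30 (limma adjusted p = 0.564). Tagln M83107_g_at (log2 0.20), Cnn1 (0.37) and Myh11 S61948_s_at (0.06) overlapped (limma adjusted p = 0.786 to 0.970). Under quantile normalization M34134_s_at turned round to 0.75 (adjusted p = 0.0440), while X02412_at at -0.85 (0.0485) and M60666_s_at at -1.91 (0.0319) passed as lower. Cald1, at 27.1 and 33.7 in unloaded control against 244.2 and 190.1 in loaded control, was lower in the fit without the filter (log2 -1.78 ± 0.40, and -2.23 to -0.90 over 7 other settings, limma adjusted p = 0.0451), where 3.44% of probe sets were called lower. The Cald1 call ended without any 1 of the loaded control, loaded healing or unloaded control arrays (adjusted p = 0.0967 to 0.280), under spike-in scaling (0.0953), with the larger offset (0.0663) and with the replicate number as a term (0.0624). The 2 members higher in unloaded control were both very dim, Acta2 X06801cds_i_at (19.7 and 28.1, against 12.9 and 15.1 in loaded control) and Myh11 X16261_i_at (52.6 and 202.7, against 22.9 and 34.2).

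The effect of injury differed between unloaded and loaded rats for 1 Tpm1 probe set in the interaction test. The log2 change of M15474cds_s_at with injury was larger by 1.99 ± 0.39 in unloaded than in loaded rats (limma adjusted p = 0.0115), being 1.19 in unloaded and -0.80 in loaded rats. It was the 1 of 8 tested members called higher, 0 were called lower, and 4.52% of all tested probe sets were called higher and 0.324% lower. The call ended without unloaded healing 1 (adjusted p = 0.0558) and under spike-in scaling (0.144). X02412_at, which rose with injury in both loading states, had an interaction of -0.59 ± 0.40 (limma adjusted p = 0.615). Acta2 rc_AA900769_s_at had -0.69 ± 0.43 (limma adjusted p = 0.585), Tagln M83107_g_at -1.25 ± 0.68 (0.516) and Myh11 S61948_s_at 1.31 ± 0.79 (0.573). In the fit without the filter Cald1 had an interaction of 4.45 ± 0.57 (limma adjusted p = 0.00179), with 2.56% of probe sets called higher. That call held without each array in turn (adjusted p = 0.00438 to 0.0194) and under the 7 other settings tried with it (0.00130 to 0.00514), over which its size ranged from 2.28, with the offset 4 times as large, to 5.07, with a floor. It rests on a single dim probe set and on the unloaded control arrays. The array's beta-actin 3' control was high and low in the same groups as Cald1. This control read 4786.3 and 5235.2 in unloaded healing and 4393.3 and 4955.3 in loaded control. In loaded healing it read 1353.1 and 1596.6, and in unloaded control 1283.9 and 1493.7. Another beta-actin probe set, Actb V01217_at, did not form these 2 levels. It read 9195.8 and 5965.3 in unloaded healing and 5688.1 and 5142.2 in loaded healing. Unloaded control gave 566.9 and 537.8, and loaded control 8651.5 and 11113.0. The interaction of Actb V01217_at was 4.49 ± 0.33 (limma adjusted p = 9.71e-06). M15474cds_s_at was high in the same groups as the 3' control, and a link of either member to that control was not tested.

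Unloaded healing was also set against loaded control, a comparison that uses neither the loaded healing nor the unloaded control arrays. The limma fit called 0 of 8 tested members in either direction, 0 had an unadjusted p under 0.05 where 291 of all 5244 did, and 0.0572% of all tested probe sets were called higher and 0.0191% lower. Over all 15, 7 had both unloaded healing arrays above both loaded control arrays and 0 had both below, against 17.5% and 14.3% of 8740 probe sets. The 7 were Tpm1 X02412_at, M15474cds_s_at (log2 0.38) and M34134_s_at (0.24), and the dim Acta2 X06801cds_f_at (0.39), Tagln M83107_at (0.51), Myh11 X16261_i_at (0.89) and Cald1 (0.51). X02412_at had 3156.8 and 2157.8 in unloaded healing and 1769.1 and 1651.4 in loaded control (log2 0.60 ± 0.28, limma adjusted p = 0.900). Acta2 rc_AA900769_s_at differed by -0.12 ± 0.30, Tagln M83107_g_at by 0.26 ± 0.48 and Myh11 S61948_s_at by -0.15 ± 0.56 log2 units (limma adjusted p = 0.998 for each). With 2 arrays a group, a missed threshold does not show that the groups were alike.

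Among the probe sets of Tpm1, the change with injury depended on which was read. Within an array, log2 signal of X02412_at minus that of M15474cds_s_at was 0.67 and 0.42 in unloaded healing, 3.57 and 2.74 in loaded healing, -0.0023 and 0.60 in unloaded control and 0.36 and 0.29 in loaded control. Both loaded healing arrays stood above the other 6. The difference between these probe sets was not tested. Against the steadier M34134_s_at, M60666_s_at was lowest in unloaded control: M34134_s_at minus M60666_s_at was 5.11 and 4.35 in unloaded healing, 3.99 and 4.65 in loaded healing, 5.99 and 5.99 in unloaded control and 4.39 and 4.79 in loaded control.

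**Figure D3:**
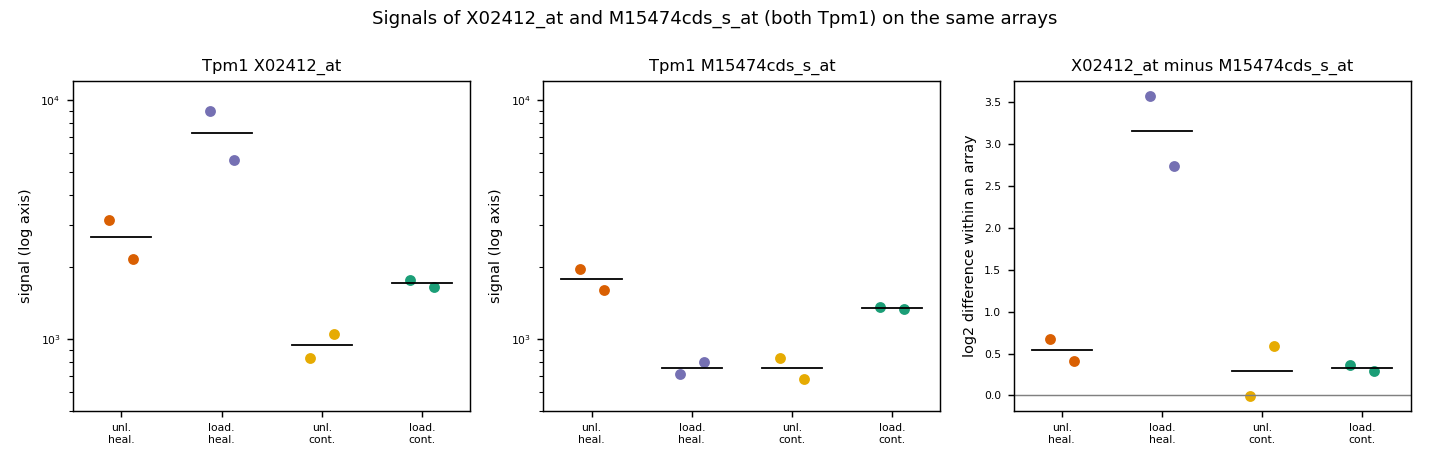
Signal of the Tpm1 probe sets X02412_at and M15474cds_s_at (log axes) and, at right, their log2 difference within each array; points are arrays and bars are group means. Loaded healing arrays are highest on X02412_at, and on M15474cds_s_at they lie below loaded control and unloaded healing; their difference is 3.57 and 2.74 there and at most 0.67 elsewhere.

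Over the 8 arrays, members fell into opposed patterns. Log2 signal of Acta2 rc_AA900769_s_at had a Pearson r of 0.93 with Tpm1 X02412_at and 0.81 with Tagln M83107_g_at, and of -0.89 with Myh11 S61948_s_at. Tagln and Myh11 had an r of -0.88, and Cnn1 had an r of -0.63 to 0.21 with the other tested members. These are descriptions over 8 arrays that share one scaling. The genes most like each member were found by the highest r among named probe sets past the filter. For Acta2 they were Sparcl1, a matrix-associated glycoprotein (r = 0.99), Zfand6 (0.98) and the glycolytic enzyme Eno1 (0.98), the same 3 genes with and without the unloaded controls. For Tagln they were the growth factor receptor Igf1r (0.94), the adiponectin receptor Adipor2 (0.91) and C17h5orf24 (0.90) over 8 arrays, and Cxcl13, Ybx3 and Atp5po (0.98 to 0.99) over the 6 arrays without unloaded controls. For Cnn1 they were the mitochondrial thioredoxin reductase Txnrd2 (0.98), the proteasome subunit Psmb4 (0.98) and Mat2a (0.96). Myh11 was most like Aldh3a1 (0.94), Ddrgk1 (0.93) and Stxbp5 (0.91), and Tpm1 M34134_s_at most like Shisa4 (0.96), Macroh2a1 (0.94) and the glycolytic enzyme Pgk1 (0.90). Only the Acta2 list stayed the same when the unloaded controls were left out, and with so few arrays many probe sets reach a high r.

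Other genes of the contractile apparatus gave few calls. Of 20 further smooth muscle contractile and cytoskeletal genes, 10 were on the array and 9 probe sets of 7 genes were tested. In the limma fit 0 rose and 0 fell in loaded healing against sham (2 at an unadjusted p under 0.05, median log2 0.23 against -0.03 for all tested) and 0 and 0 in unloaded against loaded healing (0 at an unadjusted p under 0.05, median -0.06 against 0.06). Myl12a, a regulatory light chain of nonmuscle and smooth muscle myosin, rose in unloaded healing against unloaded control, with 2970.8 and 2293.7 in unloaded healing and 593.7 and 96.7 in unloaded control (log2 3.14 ± 0.54, limma adjusted p = 0.00422). It fell in unloaded against loaded control (log2 -3.44 ± 0.54, limma adjusted p = 0.00235). Its 6472.2 and 5299.7 in loaded healing were above the 3575.8 and 2903.9 of loaded control, which did not pass.

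Regulators showed no call in any of the 6 comparisons. Of 24 regulators of smooth muscle contraction, 13 genes with 21 probe sets were tested and 0 passed in the limma fit, with 2 or 3 at an unadjusted p under 0.05 in each comparison. The brightest were Kcnmb1, the smooth muscle subunit of the large-conductance potassium channel, at 2905.3 and 1188.8 in unloaded healing, 2419.3 and 921.5 in loaded healing, 2420.5 and 2571.2 in unloaded control and 2600.5 and 3101.0 in loaded control, and Cacna1c, the pore of the L-type calcium channel. Of 22 transcriptional regulators, 9 genes with 13 probe sets were tested and 0 passed (0 to 3 at an unadjusted p under 0.05).

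Genes of the nonmuscle actin cytoskeleton and of myofibroblast matrix moved in places. Of 12 nonmuscle genes 7 were tested with 12 probe sets: in loaded healing 1 rose and 1 fell (median log2 -0.73 against -0.03 for all tested), and in unloaded against loaded healing 1 rose and 0 fell. The riser in loaded healing was Tmsb4x, thymosin beta-4, which binds monomeric actin (log2 0.80 ± 0.17, limma adjusted p = 0.0492), and the other in both comparisons was Actg1, cytoplasmic gamma-actin, on a probe set of the family type (-1.98 ± 0.28 in loaded healing against loaded control and 1.87 ± 0.28 in unloaded against loaded healing, limma adjusted p = 0.00607 and 0.0111). Of 24 TGF-beta and matrix genes linked to myofibroblasts, 17 were tested with 27 probe sets. In loaded healing 1 rose (Fn1, fibronectin, 1.36 ± 0.25) and 1 fell (1 of the Col1a1 probe sets, -1.41 ± 0.22). In unloaded against loaded healing 0 rose and 4 fell, on probe sets of Col1a2, Fn1, Col1a1 and Col3a1 (median -0.02 against 0.06). Over all tested probe sets 1.03% rose and 0.992% fell in loaded healing against loaded control. In unloaded against loaded healing 0.763% rose and 0.858% fell. The comparisons that use the unloaded controls gave more calls on both lists, as they did over all tested probe sets. In unloaded healing against unloaded control 8 matrix and 3 nonmuscle probe sets rose and 0 of either fell. Of all tested probe sets 6.41% rose and 1.05% fell there. In unloaded against loaded control 9 matrix and 4 nonmuscle probe sets fell and 0 of either rose, where 6.22% of all fell and 0.591% rose. The interaction was called higher for 7 matrix and 4 nonmuscle probe sets and lower for 0 of either. Of all tested probe sets it was called higher for 4.52% and lower for 0.324%. Unloaded healing against loaded control gave 0 limma calls on either list (7 matrix and 0 nonmuscle at an unadjusted p under 0.05).

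Vessel markers gave a separate reading of the tissue. Of 17 endothelial genes 9 were tested with 13 probe sets, and the limma fit gave 0 calls in loaded healing against sham (1 at an unadjusted p under 0.05). In unloaded healing Nos3, the nitric oxide synthase of endothelium, read 295.1 and 253.0, against 872.0 and 831.9 in loaded healing (log2 -1.49 ± 0.31, limma adjusted p = 0.0439), and it was the 1 endothelial probe set of 13 to fall there. Nos3 was also lower than the 1365.3 and 1382.3 of unloaded control (log2 -2.15 ± 0.31, limma adjusted p = 0.000991). Its interaction was -2.01 ± 0.43 (limma adjusted p = 0.0217). The median log2 difference of the 13 endothelial probe sets in unloaded against loaded healing was 0.24, against 0.06 for all tested. In unloaded healing against unloaded control it was -0.46, against -0.23 for all tested. The summed endothelial signal was 9230 to 11910 in unloaded healing, 7768 to 11719 in loaded healing, 16349 to 16655 in unloaded control and 9303 to 13388 in loaded control. Of 11 pericyte and mural cell genes 6 were tested with 8 probe sets, and limma called 0 in any comparison (0 or 1 at an unadjusted p under 0.05). Their brightest 2 were Abcc9, a potassium channel subunit, whose unloaded healing arrays read 2885.6 and 287.5, and Anpep, at 2435.6 and 1973.4 in unloaded healing and 1938.0 and 1682.2 in loaded healing. Cardiac muscle genes, which a ligament should lack and which share tropomyosin, had 0 calls among 6 tested probe sets (0 to 2 at an unadjusted p under 0.05). Their 14 probe sets, tested or not, summed to 3453 to 3474 in unloaded healing and 2507 to 3424 in loaded healing. The cardiac sum was 3860 to 4230 in unloaded control and 2674 to 3192 in loaded control. The smooth muscle sum given next is of the same order, and the part of background signal in either was not tested. The 9 probe sets of the smooth muscle markers Acta2, Tagln, Cnn1 and Myh11 summed to 2334 to 2493 in unloaded healing, 3544 to 3675 in loaded healing, 2311 to 3144 in unloaded control and 2382 to 2754 in loaded control. Within that sum Acta2 rc_AA900769_s_at and Tagln M83107_g_at were highest in loaded healing, and Myh11 S61948_s_at was lowest there.

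**Figure D4:**
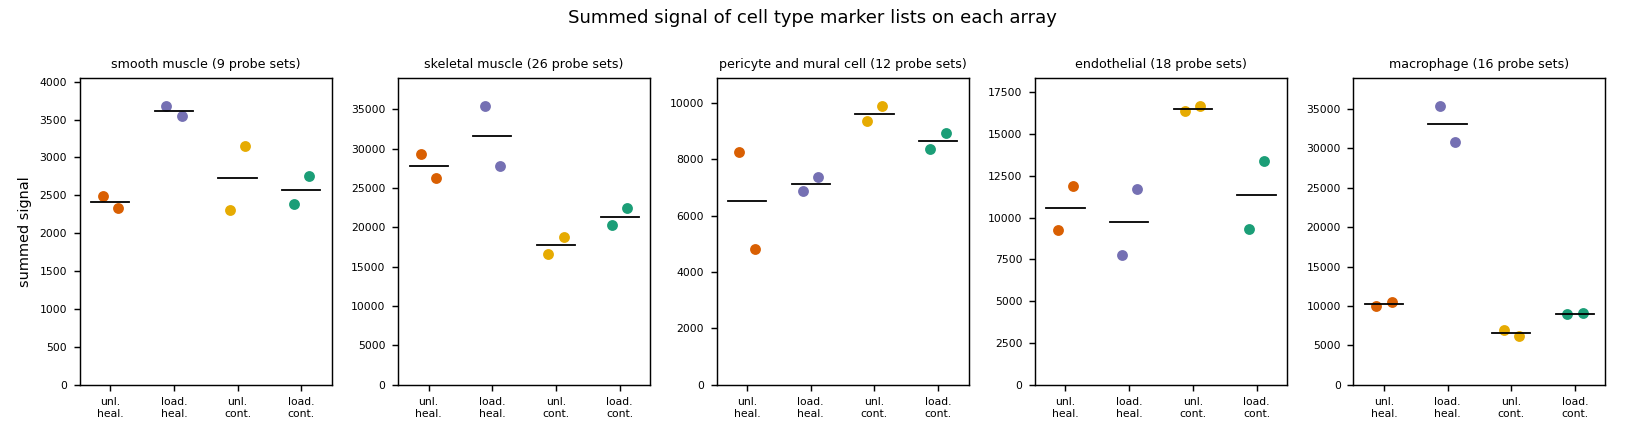
Summed signal of 5 cell type marker lists on each array (linear axes from 0); points are arrays and bars are group means. The smooth muscle sum, from members described here, and the macrophage sum are highest in loaded healing, the skeletal muscle sum is higher in both healing groups than in either control group, and the endothelial sum is highest in unloaded control.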

How the data were processed

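Expression in rat medial collateral ligament was measured in 8 samples, 2 in each of 4 groups taken from the sample titles. The deposited values are linear signal intensities per probe set that the authors had already scaled: every array had a 2% trimmed mean of 500.3 to 500.6. The labels do not name the software. Every column was used.

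The platform annotation gave gene symbols, and 7018 of 8799 probe sets carried 1 symbol, 308 several and 1473 none. Identifiers of 6994 matched the RefSeq gene table of GRCr8, which changed 0 symbols. After removing 59 control probe sets, 45.8, the 10th percentile of the values, was added to each before log2. Probe sets in the dimmest 40% by mean over all arrays were then dropped, leaving 5244. The filter uses the mean over all samples, so it does not look at groups.

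A model with 1 mean per group was fitted to all arrays with limma 3.58.1 in R 4.3.3, with variances that follow mean signal (4 residual and 5.81 prior degrees of freedom). The 6 comparisons were tested two-sided, and p-values adjusted by Benjamini-Hochberg over all probe sets tested in a comparison, threshold 0.05. The fit was tested on simulated data. Precision is limited by having 2 arrays in each group.

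Named were all members, the up to 4 probe sets of smallest adjusted p past the threshold per gene list and comparison (the 2 brightest for lists without any), and the 3 named probe sets most correlated with each tested member gene's brightest probe set. Shown from these are those that bear on the members. The members, lists and tests were chosen with earlier results of these data known. Alternatives were quantile, median and spike-in normalization (BioC, BioDn and CreX controls), a floor or an offset 4 times as large, no filter or 60%, no variance trend, a term for replicate number, leaving out the unloaded controls, and leaving out each array. The combinations of no filter with other settings for Cald1 were added after seeing the data.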

Additional observations from a re-analysis of the deposited data

Results flagged for a closer look

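The change of Tpm1 M15474cds_s_at with injury differed between the loading states in the interaction test, by 1.99 log2 units (limma adjusted p = 0.0115).

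For Cald1 rc_AI180288_s_at, both injured arrays lay below sham in loaded rats and both lay above control in unloaded rats, a difference of 4.45 log2 units between the 2 injury effects. It is under the filter on low signal, and the fit without the filter gave limma adjusted p = 0.00179 for it. The array's beta-actin 3' control was also lower with injury in loaded rats and higher with injury in unloaded rats.

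The dim Acta2 probe sets also moved in opposite directions in loaded and unloaded rats, by 1.04 log2 units for X06801cds_f_at (higher with injury in unloaded, lower in loaded rats) and by -0.83 for X06801cds_i_at (the reverse). In the fit without the filter neither difference passed (limma adjusted p = 0.669 and 0.624).

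Of the 4 probe sets that carry both Acta2 and Actc1, which were fitted with the rest but are not members, rc_AI104567_g_at gave 525.8 and 484.7 in loaded healing and 311.8 and 385.1 in loaded control (log2 0.49). The other 3 were not higher. X80130cds_f_at gave 82.4 and 107.1 in loaded healing and 159.8 and 459.1 in loaded control (log2 -1.20), and X80130cds_i_at gave 1432.0 and 1534.2 in loaded healing and 1797.7 and 1892.0 in loaded control (log2 -0.31). The arrays of rc_AI104567_at overlapped (log2 -0.12).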

How the results depend on the processing

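The number of members called changed with several settings. For loaded healing against loaded control it was 1, and 0 with a variance prior without the signal trend, and ranged from 0 to 1 as single arrays were left out. For unloaded against loaded healing it was 1, then 0 with median centring, 0 without the trend, 2 with spike-in scaling, and 0 whichever array was left out. Without the filter this count was also 1, but the probe set was Cald1, higher, and no longer Tpm1 X02412_at. For unloaded healing against unloaded control it was 2, then 1 with spike-in scaling, 3 with quantile normalization, median centring or a floor (M60666_s_at added in each), 3 without the filter (Cald1 added), 1 without the trend, which was M60666_s_at (adjusted p = 0.0349) and neither of the original 2, and 0 to 2 as arrays were left out. For unloaded against loaded control it was 0, then 3 with quantile normalization (1 higher, 2 lower), 1 with median centring, 1 without the filter (Cald1), 1 without the trend, and 0 whichever array was left out. For the interaction it was 1, then 2 without the filter, 0 with spike-in scaling, and 0 to 1 as arrays were left out. For unloaded healing against loaded control it was 0 in all 18 alternatives. The 1 reversal was Tpm1 M34134_s_at in unloaded against loaded control, at 0.75 with quantile normalization. In these cases the cause was not tested, except that leaving out an array leaves fewer samples.

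Spike-in scaling moved the median of all tested probe sets to 0.34 from -0.03 in loaded healing against loaded control, to -0.40 from -0.23 in unloaded healing against unloaded control and to 0.32 from 0.23 in unloaded against loaded control. For the interaction, where the M15474cds_s_at call ended under this scaling, the median went to -0.70 from -0.16. Of 918 values of single member probe sets under an alternative, 852 kept their side of the threshold without moving in sign beyond the replicate spread, 43 lost a call, 9 gained one, 1 reversed and 13 uncalled ones changed sign by more than the replicate spread. Where an array was left out, the lone array of its group was assumed to vary like the other groups.

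Titles share replicate numbers across groups, but nothing says they mark a shared animal or day, and deviations of same-numbered arrays correlated at 0.0008 to 0.20 over the 6 pairs of groups. With the replicate block, the numbers of members called were 1, 1, 2, 0, 1 and 0 in the 6 comparisons, as without it, and limma called 123 probe sets in loaded healing against loaded control in place of 106. The block moved no count of members called in the fit with the filter.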
